A study of Homo sapiens with 8 samples.

Results

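Integrins are cell surface receptors that tie the matrix outside the cell to actin inside it, and the proteins that gather on their tails form focal adhesions. The RNA of 43 genes of this system was followed in the A375 human melanoma cell line, out of 58051 genes counted. The genes were chosen by symbol and comprise 16 alpha subunits, 8 beta subunits, 4 genes for talin, kindlins and ICAP1 (proteins that bind beta tails), 4 for the complex of ILK, PINCH and parvins, 4 kinases and 7 scaffold and adaptor genes. All 43 were found in the counts by Ensembl identifier.

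There were 8 libraries, from 4 wild-type lines (WT1, WT2, WT3 and WT4), each of which was derived from A375 by cloning from a single cell. Each line was cultured to about the same confluence in medium with 10% fetal bovine serum and then kept for 12 h in medium with 10% serum or with 0% serum, so every line gave 1 serum and 1 serum-free library. A375 cells carry mutated *BRAF*, and the series was made to look for secreted factors behind the junctions that melanoma cells form when serum is removed. Every line is 1 clone of 1 cell line, so error over 4 lines describes these clones and not melanoma in general.

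An integrin is a pair of an alpha and a beta subunit, and the pair sets the ligand. Laminin is bound by pairs with *ITGA3*, *ITGA6* and *ITGA7*, collagen by those with *ITGA1*, *ITGA2*, *ITGA10* and *ITGA11*, and the RGD motif of fibronectin and vitronectin by those with *ITGA5* and *ITGAV*. Talin and kindlins switch beta tails to the active state, and focal adhesion kinase (*PTK2*) and SRC then signal from the adhesion. In melanoma, integrins of the beta 3 class have long been studied in invasion.

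The files of WT4 name another line, so that line is identified by the sample titles. Between 29759279 and 67101005 reads were counted on genes in the serum libraries, and between 37847737 and 73341551 in the serum-free ones. The share of reads that did not align uniquely was 22.7% in the serum library of WT1, 16.8% in that of WT2 and 5.73% to 10.1% in the other libraries. The lineage markers were mixed: *AXL* stood at 115 RPKM (reads scaled to exon length and library size) with serum and 91.8 RPKM without, *MITF* at 5.41 and 4.47 RPKM, *MLANA* at 0.318 and 0.337 RPKM, and *SOX10* at 0 reads in all 8 libraries. Exon overlap with other genes was examined for the members only, so the 0 of *SOX10* does not show that the gene is silent. Of 9 blood cell and platelet markers, 5 were at 0 throughout and the list summed to 1.74 to 3.96 RPKM with serum and 2.25 to 4.90 without. Fibroblast markers, of which *LUM* gave most, summed to 1.4 to 2.84 and 1.45 to 2.11 RPKM, endothelial markers to 0.235 to 0.599 and 0.413 to 0.564, and keratinocyte markers, of which *KRT10* and *KRT14* gave most, to 25.0 to 29.4 and 19.9 to 25.4. In bulk RNA, fewer cells of a kind and less RNA per cell cannot be told apart.

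Of the 6 members called higher without serum by at least 0.5 on the log2 scale in the fit without a block for line, the promoters of 4 are shown, so that they can be compared for common motifs. The genes were picked for that call, so their shared rise is the selection and not a result. Each run is the 250 bases before the RefSeq transcription start on GRCh38.p14, read 5′ to 3′ on the strand of the gene, and capitals mark the only match to the motifs searched.
*TNS3* promoter, chr7:47582587-47582836, minus strand: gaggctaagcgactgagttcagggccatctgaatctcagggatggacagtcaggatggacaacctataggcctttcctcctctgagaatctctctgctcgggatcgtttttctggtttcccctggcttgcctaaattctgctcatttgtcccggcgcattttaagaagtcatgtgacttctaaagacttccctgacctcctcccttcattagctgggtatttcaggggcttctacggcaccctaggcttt
*ITGB5* promoter, chr3:124901419-124901668, minus strand: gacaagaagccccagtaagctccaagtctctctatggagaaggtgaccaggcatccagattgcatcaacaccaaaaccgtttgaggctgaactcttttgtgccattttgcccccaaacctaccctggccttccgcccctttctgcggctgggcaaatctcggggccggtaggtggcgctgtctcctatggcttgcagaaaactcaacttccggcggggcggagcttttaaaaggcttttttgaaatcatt
*ITGA10* promoter, chr1:145910051-145910300, minus strand: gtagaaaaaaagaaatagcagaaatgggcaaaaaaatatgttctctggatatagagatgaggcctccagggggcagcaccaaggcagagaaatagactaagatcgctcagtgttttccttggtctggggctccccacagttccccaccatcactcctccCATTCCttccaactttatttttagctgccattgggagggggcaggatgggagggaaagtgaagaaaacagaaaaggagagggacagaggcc
*ITGA11* promoter, chr15:68432164-68432413, minus strand: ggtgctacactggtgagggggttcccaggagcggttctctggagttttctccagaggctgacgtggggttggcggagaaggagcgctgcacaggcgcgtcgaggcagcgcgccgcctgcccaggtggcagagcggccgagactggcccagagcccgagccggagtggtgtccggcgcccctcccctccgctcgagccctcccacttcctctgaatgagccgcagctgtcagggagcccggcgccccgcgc
The motifs were searched on both strands and counted separately, so their matches could overlap: TGANTCA for AP-1, GTAAACA for FOXO, GGAATG for TEAD and the CArG box of SRF. The match in the *ITGA10* promoter is GGAATG on the opposite strand, 91 bases before the start, and the other 3 promoters held none of the 4. Promoters were found for 31 of the 43 members, in 61 windows, since a gene can have several starts. TGANTCA occurred in 8.20% of these windows and in 6.57% of all 35116 windows, GTAAACA in 1.64% and 2.98%, GGAATG in 13.1% and 11.9%, and the CArG box in 6.56% and 1.16%. The CArG matches lay in *ITGB1BP1*, *ITGB6* and *LPP*, and windows of 1 gene overlap, so these shares are a description only.

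Integrin RNA in these cells was mostly that of laminin receptors and of the beta 1, beta 5 and beta 8 chains. The laminin-binding alpha subunits made up 69.7% ± 2.67 of all alpha subunit RPKM with serum and 67.5% ± 3.57 without (mean ± SD, n = 4 lines, as for every level and share here, while the ± of a log2 fold change is the standard error of the fit). *ITGA6* was the highest of the 16 alpha subunits. With serum it stood at 66.8, 76.4, 68.2 and 61.0 RPKM in WT1, WT2, WT3 and WT4, the order of lines used throughout, and without serum at 59.4, 67.3, 55.3 and 62.9 RPKM. *ITGA3*, the next laminin receptor subunit, stood at 30.7, 34.7, 23.8 and 41.3 RPKM with serum and 35.8, 40.7, 28.6 and 40.5 without. The ranges of these genes did not overlap, but with the length of the longest transcript in place of the merged exons *ITGA6* was above *ITGA3* in 3 of 4 lines. *ITGA5*, the fibronectin receptor subunit, came next at 13.0, 13.8, 14.7 and 16.2 RPKM with serum and 15.0, 14.5, 14.8 and 16.9 without. The remaining alpha subunits were below 10.0 RPKM in every library.

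**Figure D1:**
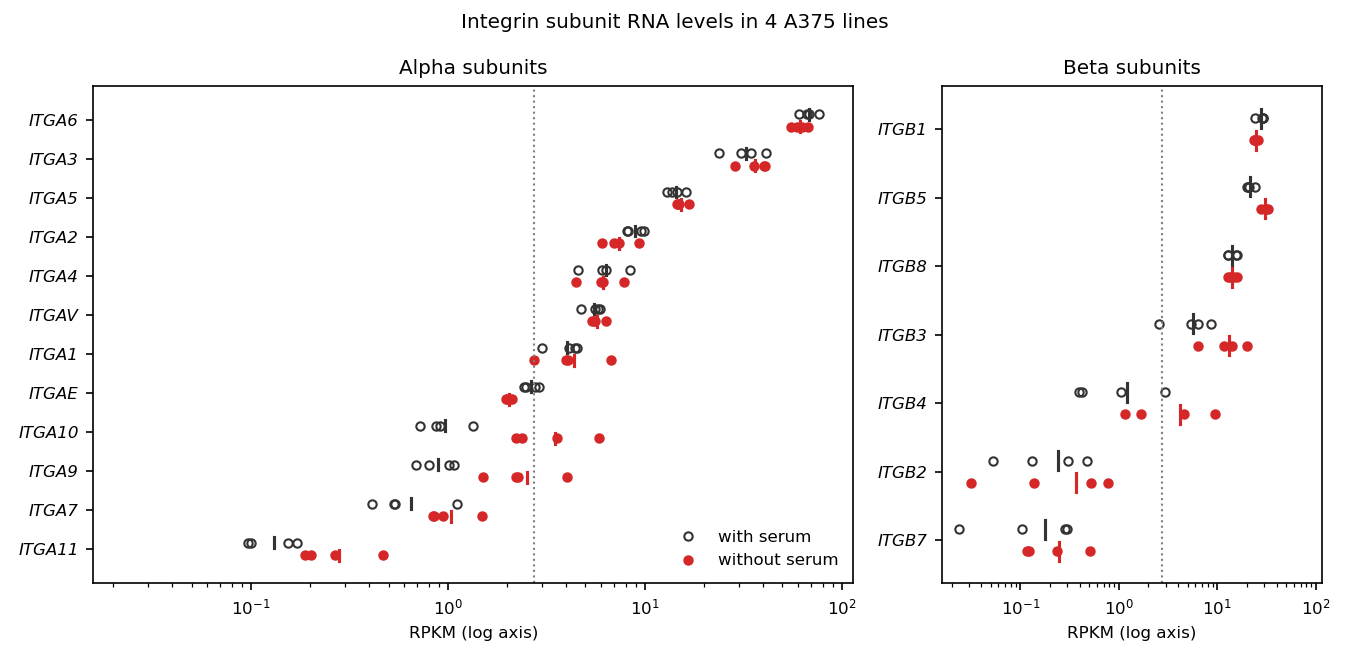
RNA level of each tested integrin subunit in RPKM on a log axis, alpha subunits on the left and beta subunits on the right; open circles are the 4 serum libraries, filled circles the 4 serum-free libraries, short lines the means, and the dotted line the median of expressed genes with serum (2.75 RPKM). *ITGA6* lies at the top of the alpha subunits at 55.3 to 76.4 RPKM, and *ITGA10*, *ITGA9* and *ITGB3* show filled circles to the right of most open ones.

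Of the beta subunits, *ITGB1*, the partner of most alpha chains, was first with serum at 29.3, 28.8, 29.3 and 24.2 RPKM. *ITGB5*, a vitronectin receptor subunit, followed at 20.7, 20.1, 21.0 and 23.9, and *ITGB8*, which pairs with *ITGAV* and binds latent TGF-beta, at 12.7, 15.5, 15.9 and 12.9. The 3 ranges did not overlap. Without serum *ITGB5* stood above *ITGB1* in 4 of 4 lines with merged exon length and in 0 of 4 with the longest transcript (44.9 against 63.5 RPKM on average), so that order depends on the length used. *ITGAV*, the alpha partner of the beta 3, beta 5 and beta 8 chains, stood at 5.57, 5.94, 5.78 and 4.73 RPKM with serum and 5.38, 6.34, 5.57 and 5.53 without, below *ITGB5* and *ITGB8* in all 8 libraries with either length.

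Seen as pairs, 17 of 22 listed alpha and beta combinations had both subunits above the filter on low counts. The others include alpha IIb beta 3 of platelets and the pairs of *ITGB2* with *ITGAL* and *ITGAM*: *ITGA2B*, *ITGAL*, *ITGAM*, *ITGA8* and *ITGB6* had at most 8 reads in any library and were not tested, while *ITGB2* itself had 11 to 436 reads. *ITGAX* is not a member but passed the filter, with at most 72 reads, and its pair with *ITGB2* was not listed. For alpha 6 beta 4, the hemidesmosome receptor, the beta subunit was the scarcer one, at 1.21 ± 1.21 RPKM with serum and 4.22 ± 3.79 without, against 68.1 ± 6.36 and 61.2 ± 5.12 for *ITGA6*. *ITGAE*, which pairs only with *ITGB7* and binds E-cadherin, was at 2.65 ± 0.221 and 2.04 ± 0.0711 RPKM, while *ITGB7* was at 0.178 ± 0.136 and 0.247 ± 0.187. In the lifted annotation 42.3% of *ITGB7* exon bases are shared with *ZNF740*, so its reads are uncertain.

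In all, 26 of the 43 members were above the median expressed gene (2.75 RPKM over 17425 genes) with serum and 28 above that without serum (2.93 RPKM). The adaptors *PXN* (45.8 ± 4.22 RPKM with serum, 51.3 ± 1.68 without) and *CRK* (43.6 ± 2.79 and 37.1 ± 1.53) were the highest members other than *ITGA6* with merged exon length, though with the longest transcript *ITGB1* stood above *PXN* with serum (72.4 against 62.6 RPKM) and below it without (63.5 against 70.1), and *CRK* (46.0 and 39.2 RPKM) stood below *ITGB1* and *ITGA3* (58.4 and 65.2 RPKM) in both conditions and below *ITGB5* without serum. In contrast, *ILK* was nearly absent at 7 to 46 reads per library. As 78.5% of its exon bases are shared with *TAF10* and other genes of the opposite strand in the lifted annotation, its level cannot be read from these counts.

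Serum withdrawal was compared with serum in the same 4 lines to ask how far the integrin and adhesion genes respond. Of the 38 members tested, 9 rose and 5 fell at an adjusted p under 0.05 (edgeR's quasi-likelihood test, Benjamini-Hochberg adjustment over 17671 genes), next to 11.1% of all tested genes that rose and 14% that fell (25.1% in either direction). With the line as a replicate block, which compares the 2 libraries of each line, 16 rose and 8 fell, next to 23.2% and 22.4% of all genes (45.7% in all). The median log2 fold change of the members was 0.14 and that of all tested genes 0.033. All 14 members called without the block had the same direction in 4 of 4 lines and were also called with it, at an adjusted p of at most 0.00347. Serum and serum-free libraries did not overlap for 9 members that were higher and 4 that were lower, next to 12.6% and 15.0% of all genes. Fold changes rose with GC content across genes (Spearman rho 0.36 over genes, which are not independent replicates), and a correction for it, made with the block, is given where it changes a call. With it 18 members rose and 7 fell, next to 25.8% and 20.9% of all genes. All 14 members called without the block stayed called with the GC correction, mostly at smaller log2 fold changes. *FERMT2* went from -0.40 to -0.16, *LIMS1* from -0.36 to -0.17, *SRC* from 0.46 to 0.33 and *KANK2* from 0.31 to 0.19. Of the 14, *ITGAE* alone had a larger change, at -0.44 against -0.38.

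**Figure D2:**
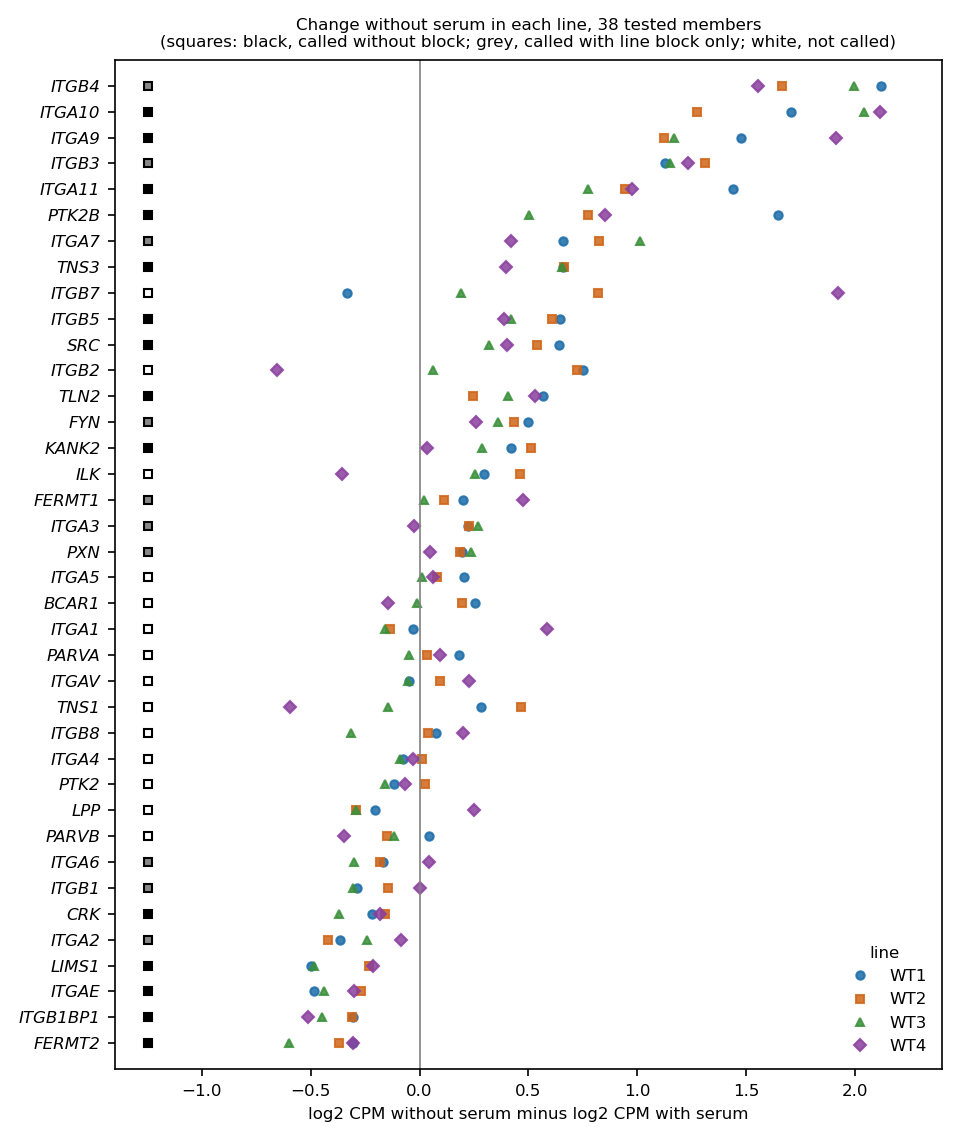
Difference in log2 CPM (counts scaled to library size) between the serum-free and serum library of each line, for the 38 tested members ordered by their log2 fold change in the blocked fit. Each symbol is 1 line, and squares at the left are black for members called by edgeR without the block, grey for those called only with the block and white for the rest. *ITGB4*, *ITGA10*, *ITGA9* and *ITGB3* lie at 1.12 to 2.12 in all 4 lines, and *ITGB7* spreads from -0.33 to 1.92.

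Among the alpha subunits, 3 rose and 1 fell of 12 tested, next to 11.1% and 14% of all genes, and the risers were all genes of low level. *ITGA10* (chromosome 1, 145891208 to 145910050), a collagen receptor subunit best known from cartilage, rose 3.66-fold, from 0.722, 0.917, 0.869 and 1.35 RPKM with serum to 2.37, 2.22, 3.60 and 5.86 without (log2 fold change 1.87 ± 0.34 (SE), edgeR's adjusted p = 0.00668). Every serum-free library was above every serum library, and the gene passed from below the median expressed gene to above it on average. *ITGA9*, which binds tenascin C and VCAM1, went from 0.798, 0.686, 1.01 and 1.07 RPKM to 2.23, 1.5, 2.28 and 4.04 (log2 fold change 1.5 ± 0.29, edgeR's adjusted p = 0.0079). In both genes WT4 was the highest line in each condition. *ITGA11*, another collagen receptor subunit, rose from 0.171, 0.0966, 0.155 and 0.100 RPKM to 0.469, 0.189, 0.267 and 0.201, on 31 to 215 reads (log2 fold change 1.10 ± 0.33, edgeR's adjusted p = 0.0367; voom's 0.0588). The one that fell was *ITGAE*, from 2.44 to 2.89 RPKM down to 1.98 to 2.13 (log2 fold change -0.38 ± 0.09, edgeR's adjusted p = 0.0145).

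*ITGA7*, the muscle laminin receptor subunit, stood at 0.540, 0.533, 0.414 and 1.11 RPKM with serum and 0.854, 0.948, 0.840 and 1.49 without. The groups overlap through WT4, which was high in both, and the gene was called only with the line block (log2 fold change 0.72 ± 0.12, edgeR's adjusted p = 1.71e-04, against 0.153 without the block). *ITGA2*, the main collagen receptor subunit here at 8.96 ± 0.909 RPKM with serum and 7.44 ± 1.37 without, was lower in 4 of 4 lines and also called only with the block (log2 fold change -0.28 ± 0.07, edgeR's adjusted p = 0.00269), though not with the block and the GC correction (0.077). Hence the collagen class holds 2 low members that rose and a higher one that was lower only in the blocked fit. Of the fibroblast markers, *PDGFRA* was also higher without serum, at 0.0742 ± 0.0207 and 0.251 ± 0.123 RPKM (log2 fold change 1.77, edgeR's adjusted p = 0.00767), as was *DCN* in the blocked fit (0.0125), while *LUM*, the highest of them, was at 1.71 ± 0.667 and 1.35 ± 0.343 RPKM (log2 fold change -0.33, edgeR's adjusted p = 0.42) and *COL1A2* and *COL3A1* had at most 7 reads in any library. Their part in the rise of *ITGA10* and *ITGA11* was not tested. Summed, the 4 collagen-binding subunits stood at 14.1 ± 1.55 RPKM with serum and 15.6 ± 4.62 without.

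The abundant alpha subunits showed small values. For *ITGA6* the log2 fold change was -0.15 ± 0.09 (edgeR's adjusted p = 0.22), for *ITGA3* 0.16 ± 0.17 (0.541), for *ITGA5* 0.09 ± 0.08 (0.482) and for *ITGAV* 0.05 ± 0.09 (0.698). With the block *ITGA6* (0.0474) and *ITGA3* (0.0256) passed the threshold, but with the GC correction as well they did not (0.655 and 0.965), and *ITGAV* did (log2 fold change 0.34, edgeR's adjusted p = 2.97e-06). *ITGA4*, at 6.35, 6.06, 8.38 and 4.58 RPKM with serum and 6.03, 6.12, 7.86 and 4.48 without, had a fold change of -0.05 ± 0.21 on the log2 scale and overlapping groups, and 0.14 with the block and the GC correction (edgeR's adjusted p = 0.016). *ITGA1* had 0.12 ± 0.26, and went from 4.50 to 6.75 RPKM in WT4 while the other 3 lines were lower without serum.

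Of 7 beta subunits tested *ITGB5* rose (11.1% of all genes did), and *ITGB3* and *ITGB4*, which differ widely between lines, were called higher by edgeR only with the line block. *ITGB5* (chromosome 3, 124761948 to 124901418 on GRCh38) rose in every line, from 20.7, 20.1, 21.0 and 23.9 RPKM with serum to 32.4, 30.7, 28.1 and 31.3 without, with no overlap (log2 fold change 0.51 ± 0.08, edgeR's adjusted p = 0.00213). *ITGB3* (chromosome 17, 47253827 to 47313743), the beta chain that with *ITGAV* forms the classical vitronectin receptor, went from 5.39, 2.54, 6.30 and 8.56 RPKM to 11.8, 6.31, 14 and 20.1. The rise was close to the same size in each line, at 1.13, 1.31, 1.15 and 1.23 on the log2 CPM scale, but the lines differed so much in level that the groups overlapped. Accordingly, the change of 1.20 on the log2 scale missed the threshold without the block (SE 0.44, edgeR's adjusted p = 0.0863) and passed with it (SE 0.06, edgeR's adjusted p = 7.72e-09). DESeq2 without a block also called it (DESeq2's adjusted p = 0.0425). In the lifted annotation 33.2% of the exon bases of *ITGB3* are shared with a second gene on the same strand, ENSG00000259753.

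*ITGB4* (chromosome 17, 75721459 to 75757818), whose long tail anchors keratin at hemidesmosomes, behaved in the same manner. It was at 1.06, 2.97, 0.418 and 0.391 RPKM with serum and at 4.61, 9.43, 1.69 and 1.16 without, 1.55 to 2.12 higher on the log2 CPM scale within each line (blocked log2 fold change 1.85 ± 0.10, edgeR's adjusted p = 1.64e-08, against 0.182 without the block). The summed keratinocyte markers went from 25.0 to 29.4 RPKM with serum to 19.9 to 25.4 without, and their part in the *ITGB4* value was not tested.

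**Figure D3:**
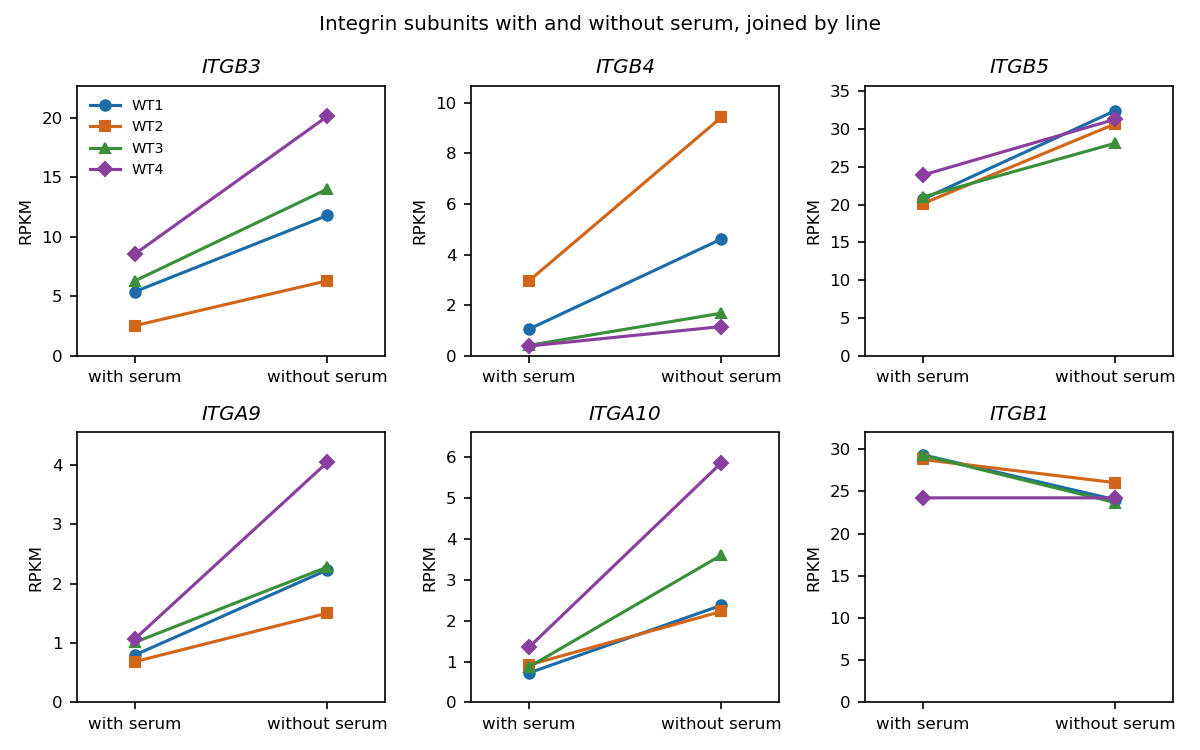
RPKM of 6 integrin subunits with serum and without serum, with a line joining the 2 libraries of each A375 line; each vertical axis starts at 0 and has its own scale. The joined lines of *ITGB3* and *ITGB4* start at different levels and all go up, those of *ITGB5*, *ITGA9* and *ITGA10* go up from similar levels, and for *ITGB1* WT4 starts lowest, at 24.2 RPKM, and stays at 24.2.

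*ITGB1* had its serum values of 29.3, 28.8, 29.3 and 24.2 RPKM next to 24.0, 26.0, 23.7 and 24.2 without serum. The values of WT1, WT2 and WT3 were lower and that of WT4 was equal (log2 fold change -0.19 ± 0.08, edgeR's adjusted p = 0.0947, with the block 0.0193). That blocked call was lost with the GC correction (log2 fold change 0.00083, edgeR's adjusted p = 0.989). *ITGB8* stood at 13.4, 15.9, 12.8 and 14.8 RPKM without serum, next to 12.7 to 15.9 with serum (log2 fold change -0.0032 ± 0.10, and 0.19 with the block and the GC correction, edgeR's adjusted p = 0.00821). *ITGB2*, the leukocyte beta chain, stood at 0.305, 0.471, 0.131 and 0.0531 RPKM with serum and 0.516, 0.782, 0.137 and 0.0316 without. Its groups overlapped, with WT4 lowest in both, and like *ITGB7* it was not called.

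Summed over the 8 beta subunits, RPKM went from 69.9 to 73.2 with serum to 80.5 to 91.7 without, while the alpha subunits summed to 139 to 153 and 132 to 160. The share of *ITGB1* in beta subunit RPKM was 39.3% ± 3.26 with serum and 28.1% ± 1.37 without. *ITGB5* had 30.2% ± 2.63 and 35.1% ± 1.47, *ITGB3* 8.03% ± 3.54 and 15.0% ± 6.30, and *ITGB8* 20.1% ± 2.05 and 16.3% ± 1.02. With the longest transcript as length the beta sum went from 130 to 142 up to 143 to 160 RPKM. On that length *ITGB1* had 48.3% to 55.8% of beta subunit RPKM with serum and 39.7% to 43.03% without, and *ITGB5* 21.4% to 27.0% and 28.2% to 31.2%, so *ITGB1* kept the larger share in every library.

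Of the proteins that act directly on beta tails, *TLN2*, the less widely expressed talin, rose from 1.07 ± 0.0981 to 1.45 ± 0.173 RPKM (log2 fold change 0.44 ± 0.11, edgeR's adjusted p = 0.0156). *ITGB1BP1*, which encodes ICAP1, a competitor of talin for the beta 1 tail, fell from 13.0, 12.6, 13.9 and 12.3 RPKM to 10.5, 10.2, 10.2 and 8.63 (log2 fold change -0.39 ± 0.08, edgeR's adjusted p = 0.00678). Its ranges did not overlap, and 33.2% of its exon bases are shared with *ASAP2* on the opposite strand. *FERMT2* (kindlin 2) fell from 5.77 ± 0.797 to 4.38 ± 0.621 RPKM with overlapping ranges (log2 fold change -0.40 ± 0.12, edgeR's adjusted p = 0.0422, but 0.073 with upper-quartile scaling and 0.0504 over protein-coding genes only). *FERMT1* (kindlin 1), at 5.90, 7.46, 3.23 and 4.72 RPKM with serum and 6.79, 8.07, 3.28 and 6.56 without, was called only with the block (log2 fold change 0.20 ± 0.07, edgeR's adjusted p = 0.0324). Talin and kindlin genes thus went in both directions.

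In the complex of ILK, PINCH and parvins, 1 of 4 genes was called, next to 25.1% of all genes. *LIMS1*, which encodes PINCH1, went from 7.57, 6.87, 6.35 and 5.91 RPKM to 5.35, 5.84, 4.54 and 5.09, without overlap (log2 fold change -0.36 ± 0.10, edgeR's adjusted p = 0.0259, but 0.0554 with upper-quartile scaling). The actin-binding parvins had log2 fold changes of 0.06 ± 0.09 (*PARVA*) and -0.14 ± 0.12 (*PARVB*), and neither passed the test with or without the block. With the block and the GC correction both did, at 0.16 (edgeR's adjusted p = 0.011) and -0.19 (0.0281).

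Of the 4 kinase genes, 2 rose, next to 11.1% of all genes. *SRC* (chromosome 20, 37344699 to 37406050) stood at 8.33, 9.12, 11.2 and 12.3 RPKM with serum and 13.0, 13.3, 13.9 and 16.2 without, so that the lowest serum-free library was above the highest serum library (log2 fold change 0.46 ± 0.13, edgeR's adjusted p = 0.0242). *PTK2B*, which encodes the FAK relative PYK2, rose from 0.165, 0.333, 0.291 and 0.255 RPKM to 0.528, 0.573, 0.415 and 0.466, on 49 to 344 reads (log2 fold change 0.92 ± 0.23, edgeR's adjusted p = 0.0169). *PTK2* itself, the gene of FAK, was at 7.28, 7.05, 8.92 and 7.27 RPKM with serum and 6.71, 7.17, 7.99 and 6.93 without. Its groups overlapped (log2 fold change -0.08 ± 0.09, edgeR's adjusted p = 0.541). *FYN*, a SRC family kinase, was higher in 4 of 4 lines and called only with the block (log2 fold change 0.39 ± 0.06, edgeR's adjusted p = 1.95e-04, against 0.178 without the block). RNA levels say nothing of the phosphorylation by which these kinases are switched on.

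Among the scaffolds, *TNS3* (chromosome 7, 47275154 to 47582586), a tensin that joins beta tails to actin, had the smallest p of all members in the fit without the block. It rose from 11.1, 10.4, 12.0 and 11.5 RPKM with serum to 17.5, 16.6, 18.8 and 15.1 without, with no overlap (log2 fold change 0.60 ± 0.08, edgeR's adjusted p = 0.00174). *KANK2*, which links talin to microtubules at the adhesion rim, rose from 15.5 ± 1.75 to 19.2 ± 1.91 RPKM (log2 fold change 0.31 ± 0.10, edgeR's adjusted p = 0.0441, but 0.0546 with RLE scaling), by 0.03 to 0.51 on the log2 CPM scale in the 4 lines. *CRK*, the adaptor that reads phosphorylated p130Cas and paxillin, fell (log2 fold change -0.23 ± 0.07, edgeR's adjusted p = 0.0298, but 0.0787 with upper-quartile scaling and 0.0571 without the filter on low counts). *PXN*, encoding paxillin and sharing 23.8% of its exon bases with antisense genes, was called only with the block (log2 fold change 0.17 ± 0.05, edgeR's adjusted p = 0.0191), and not with the GC correction as well (0.9). *BCAR1* (p130Cas), *LPP* and *TNS1* did not pass in either fit, at log2 fold changes of 0.07, -0.15 and 0.03, and with the GC correction *BCAR1* was called lower (-0.13, edgeR's adjusted p = 0.0211).

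The calls differed in how far they rested on single libraries. Each library and each line was left out in turn, in 12 fits without the block, and *TNS3*, *ITGB5* and *ITGB1BP1* were called in all of them. *ITGA10* was lost only without line WT3 (edgeR's adjusted p = 0.0559) and *ITGA9* only without line WT1 (0.0631). *ITGAE*, *TLN2* and *PTK2B* were lost without any of lines WT1, WT2 and WT3, at adjusted p-values of up to 0.11, 0.0835 and 0.0806. *SRC* and *LIMS1* were lost in those fits and also without the serum library of WT1 or WT2 or the serum-free library of WT3 or WT4, at up to 0.0936 and 0.128. *CRK* and *FERMT2* were lost without line WT1, WT2 or WT3, any of their serum libraries, or the serum-free library of WT2, WT3 or WT4 (up to 0.146 and 0.196). *ITGA11* was lost without those lines, the serum library of WT2, WT3 or WT4 or the serum-free library of WT1 or WT3 (up to 0.111), and *KANK2* in all fits but those without the serum library or both libraries of WT4 (up to 0.172). Within the blocked fit, 19 of the 24 called members stayed called without each of the 4 lines. *ITGA3*, *ITGA6*, *ITGB1* and *PXN* were called only where WT4 was left out, at adjusted p-values of 2.73e-05, 1.16e-04, 3.89e-05 and 1.72e-04, and reached 0.203, 0.22, 0.136 and 0.155 without one of the other lines. *FERMT1* was called only without WT3 (0.039) and reached 0.103.

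The lines themselves differed in integrin RNA. In an edgeR fit with condition and line, 17 of the 38 members differed between lines at an adjusted p under 0.05, next to 22.9% of all tested genes, among them 12 of the 19 integrin subunits tested and 5 of the 19 adaptor and kinase genes. Each line has 2 libraries in this test, which leaves 3 residual degrees of freedom, and whether a line's response to serum differs from that of another cannot be tested with 1 library each. *ITGB4* had the smallest p: its mean over both conditions was 2.84, 6.20, 1.05 and 0.775 RPKM, so WT2 stood 8-fold above WT4 (edgeR's adjusted p = 4e-09). *ITGB3* had another order, at 8.59, 4.42, 10.1 and 14.3 RPKM (edgeR's adjusted p = 2.9e-08). WT2 was thus highest in *ITGB4* and lowest in *ITGB3*, and WT4 the reverse. *ITGB2*, with 0.411, 0.626, 0.134 and 0.0424 RPKM (edgeR's adjusted p = 4.4e-06), and *ITGB7* (0.00416) followed the order of lines seen in *ITGB4* in these means. In the libraries of WT4, however, *ITGB2* had only 11 and 13 reads and *ITGB7* 3 and 29. With serum alone, *ITGB7* was at 0.298 RPKM in WT1 and 0.287 in WT2.

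**Figure D4:**
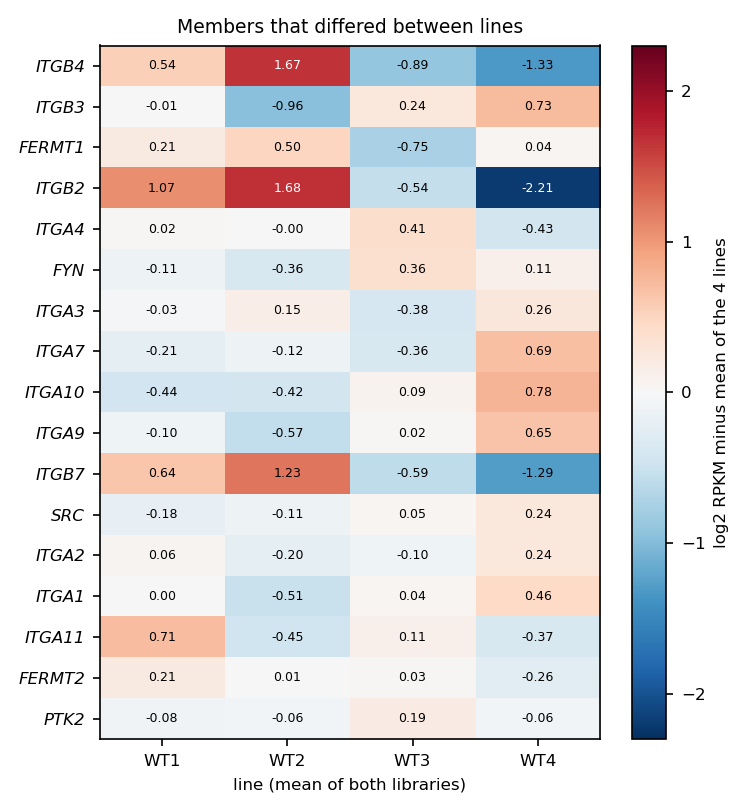
Heat map of the 17 members that differed between lines, with members as rows from the smallest p down and lines as columns; the colour and the printed value give the log2 RPKM of the line (mean of both libraries) minus the mean of the 4 lines. *ITGB4*, *ITGB2* and *ITGB7* are highest in WT2 and lowest in WT4 (1.67 and -1.33 for *ITGB4*), and *ITGB3*, *ITGA7*, *ITGA10* and *ITGA9* are highest in WT4.

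*FERMT1* was lowest in WT3, at 3.26 RPKM, next to 6.34, 7.76 and 5.64 in WT1, WT2 and WT4 (edgeR's adjusted p = 4.39e-06). *ITGA4*, the subunit that binds VCAM1, was highest in WT3 at 8.12 RPKM and lowest in WT4 at 4.53, with WT1 and WT2 at 6.19 and 6.09 (edgeR's adjusted p = 2.19e-05). *CERKL* shares 26.4% of the exon bases of *ITGA4* on the opposite strand. Among the kinases, *FYN*, *SRC* and *PTK2* differed by 1.65-fold, 1.34-fold and 1.21-fold between the highest and the lowest line. WT4, the line whose identity rests on the titles, was highest in 8 of the 17 and lowest in 5. *ITGB5*, *ITGB1*, *TNS3*, *ITGB8* and *PTK2B* did not pass the test between lines (edgeR's adjusted p from 0.233 to 0.484).

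The genes around the members were counted for comparison. Of 57 other integrin, focal adhesion and adhesion regulator genes, 51 were tested, 9 rose and 8 fell (11.1% and 14% of all genes did), with a median log2 fold change of -0.05. Those that rose included *TGFB1I1*, a paxillin relative (0.58), and *GIT2*, a paxillin-binding regulator of ARF GTPases (0.44). With the block 12 rose and 17 fell, next to 23.2% and 22.4% of all genes. The genes that fell with the smallest p were *ACTN1*, which crosslinks actin (-0.39), the kinase gene *PAK2* (-0.45) and *ENAH*, a regulator of actin filament growth (-0.36), and *SLC3A2*, which binds beta tails, had a larger change at a higher p (-0.75, edgeR's adjusted p = 0.0429). Of 41 integrin ligand genes, 33 were tested, and 9 rose and 0 fell with edgeR (again next to 11.1% and 14% of all genes), with a median of 0.41. At an unadjusted p under 0.05, 12 were higher and 0 lower, next to 18.6% and 19.8% of all genes. With the block 19 rose and 1 fell, next to 23.2% and 22.4% of all genes, and with the GC correction as well 19 rose and 3 fell, next to 25.8% and 20.9%. The risers with the smallest p were *LAMB2*, a laminin chain (log2 fold change 0.75, edgeR's adjusted p = 0.00242), the fibrillin gene *FBN1* (0.74, 0.00308) and *LAMA5*, another laminin chain (0.93, 0.0211). *LAMB2* went from 16.3 ± 2.19 to 27.5 ± 3.36 RPKM, *FBN1* from 2.15 ± 0.130 to 3.60 ± 0.653, and *LAMA5* from 2.48 ± 0.660 to 4.74 ± 1.14.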

How the data were processed

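RNA was measured in 8 libraries of ribosomal RNA-depleted total RNA (NEBNext Ultra, paired reads). The authors deposited raw HTSeq counts per gene on GRCh38, not normalized; their processing notes also name cutadapt and TopHat2 2.0.11. The paper's methods instead name hg19 for its own values. The annotation release and strand setting are not given in the sources used here, so overlapping and antisense genes are uncertain.

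Groups were taken from sample titles. The test of serum-free against serum was edgeR 4.0.16's quasi-likelihood test (R 4.3.3, robust estimation) after filterByExpr and TMM scaling, with Benjamini-Hochberg adjustment over 17671 genes and a threshold of 0.05. P-values of the fit without a block weigh the change against the spread between these 4 clones. Those of the blocked fits and of the test between lines use the spread left after condition and line.

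The main fit had no block. Both libraries of a number come from 1 line, and their deviations from the condition means correlated at 0.40, 0.59, 0.46 and 0.60, with at most 0.13 between different lines, so the number pairs them and the blocked value is given where it changes a call. Alternatives were DESeq2 1.42.0, voom (limma 3.58.1), RLE and upper-quartile scaling, other filters, protein-coding genes only, a GC correction (lowess, with the block) and leaving out each library or line. The blocked fit without each line was added after the data were seen.

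RPKM used TMM-scaled library sizes and merged exon length from GENCODE v44 in its lift to GRCh37. This build differs from that of the counts and served for length, GC content and exon overlap only. Positions and promoters are from RefSeq, GRCh38.p14, matched by symbol. The tests were also run on simulated counts with known changes, which are not evidence for any call here. A gene of the wider adhesion list is not reported here. Members, gene lists and tests were chosen with earlier results of these data known. All 43 members may be named, and values in every library are given for called members that changed by at least 0.5 on the log2 scale, for integrins and kinases that the study blocked or knocked down, for the 3 highest alpha and beta subunits and for the 5 members with the smallest p between lines. The others are given as ranges or means, and the library values of *ITGA1*, *ITGB1BP1*, *LIMS1* and the changes of *SLC3A2*, *PDGFRA*, *DCN* and *LUM* were chosen for print after they were seen.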

Additional observations from a re-analysis of the deposited data

Results flagged for a closer look

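In 8 cases 1 of the 4 libraries of a condition lay far from the other 3 by Dixon's ratio. As 76 sets of 4 values were searched, chance would give about 3.8, and no explanation was tested. *ITGB1* in the serum library of WT4 was at 352.9 CPM, with the other serum libraries at 419.1 to 427.1. *ITGA7* in the serum-free library of WT4 was at 13.54 CPM against 7.629 to 8.612, and *BCAR1* in the serum library of WT4 at 124.5 against 97.14 to 100.2. In WT1 without serum, *TLN2* was at 27.83 CPM against 22 to 22.55, and *TNS1* at 3.106 against 1.386 to 1.675. In WT3 with serum, *PTK2* was at 122.6 CPM against 96.87 to 100.1, and *PARVB* at 28.44 against 23.06 to 23.46. *ILK* in the serum-free library of WT2 was at 0.602 CPM against 0.2312 to 0.2665, at few reads.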

How the results depend on the processing

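The counts of called members depended on the pairing of libraries more than on the tool. With a replicate block for line, 16 members rose and 8 fell, against 9 and 5 without it, and with the block and the GC correction 18 rose and 7 fell. Upper-quartile scaling left 2 that fell, without *CRK*, *FERMT2* and *LIMS1*. DESeq2 gave 10 and 5, adding *ITGB3*, and voom 8 and 5, without *ITGA11*. *KANK2* was lost with RLE scaling, *CRK* without the filter on low counts and *FERMT2* over protein-coding genes only. Leaving out libraries or lines gave 3 to 17 members that rose and 1 to 9 that fell, blocked fits included (14 rose without WT3, and 17 rose and 9 fell without WT4, with the block). Without the block, 3 rose without line WT1 or WT3, 5 without WT2, and 6 without the serum library of WT2 or the serum-free library of WT3; 1 fell without line WT1, WT2 or WT3, 2 without the serum library of WT1 or WT2 or the serum-free library of WT3, 3 without the serum library of WT3 or the serum-free library of WT2 or WT4, and 8 without line WT4. The median log2 fold change of the members ran from 0.059 to 0.178 when libraries were left out, members called between lines from 13 to 20, and members above the median level from 26 to 26 with serum and from 27 to 28 without. With the block and the GC correction, 3 members that were not called changed sign and were called: *ITGA4* (0.14, adjusted p = 0.016), *ITGB8* (0.19, 0.00821) and *BCAR1* (-0.13, 0.0211); the cause was not tested. Over all alternatives, values of single members stayed on the same side of the threshold in 816 cases, in some of which an uncalled value changed sign, gained a call in 59 and lost one in 68.

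Depth limits the genes with few reads: 5 members were not tested, and *ITGB2*, *ITGB7*, *ILK*, *TNS1* and *PTK2B* rest on 3 to 436 reads per library. A gene with 0 reads in a library could be present at up to 3 reads, or 0.0393 to 0.106 CPM, counting error only.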
